A study of Mus musculus with 8 samples.

Results

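Stellate cells and myofibroblasts of the liver were followed through 10 marker genes, Acta2, Tagln, Des, Vim, Pdgfra, Pdgfrb, Lum, Dcn, Reln and Thbs1. The genes were taken by symbol from a table of 30266 genes, in which each symbol occurred once, and all 10 passed the filter on low counts. The table came from whole liver of male Mdr2-/- mice, 8 weeks of age, that had received PBS as vehicle or recombinant FGF21 (rFGF21) at 1.0 mg/kg and were sampled 4 h later, with 4 libraries per group. Both groups carry the Mdr2 deletion, so no liver with intact Mdr2, the phospholipid transporter also named Abcb4, enters the comparison, and the labels do not say that each sample is a separate animal. P-values therefore measure the spread between these libraries. Libraries are numbered as the table numbers them (PBS 1, 2, 4 and 5, and rFGF21 1, 2, 3 and 5), and these numbers are not the sample numbers of the labels.

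Hepatic stellate cells lie in the space between hepatocytes and the sinusoidal endothelium, where at rest they store vitamin A. After injury they can become myofibroblasts, which contract, respond to platelet-derived growth factor (PDGF) and lay down collagen. Loss of the bile phospholipid transporter makes bile toxic to the small ducts, and in that setting fibroblasts of the portal tract also contribute matrix-producing cells. FGF21 is a metabolic hormone that signals through FGF receptors together with the co-receptor beta-Klotho.

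Totals ran from 62756328 to 73313449 reads per library. The tissue label was read through marker genes, because the extraction protocol in the labels speaks of another tissue, the retina. The summed level of 7 hepatocyte markers lay between 75143 and 96812 CPM, the read count scaled to library size and composition (TMM). Of 3 photoreceptor markers in the table, 2 had no read in any library and the third had at most 13 reads. One control library stood apart, in the marker genes and over all genes tested. PBS library 4 was the lowest of the 8 libraries in 6 of the 10 genes (Des, Vim, Pdgfra, Pdgfrb, Lum and Thbs1), whereas over all 18315 genes tested it was the lowest in 22.4%. It was also the highest in 21.1% of all genes tested, and both shares were the largest of any library. At the other end, rFGF21 library 5 was the highest in 4 of the 10 genes (Vim, Pdgfra, Pdgfrb and Lum), against 17.0% of all genes tested. In whole tissue, fewer cells of a type and less RNA per cell cannot be told apart. The map of each gene against its own mean shows both libraries.

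**Figure D1:**
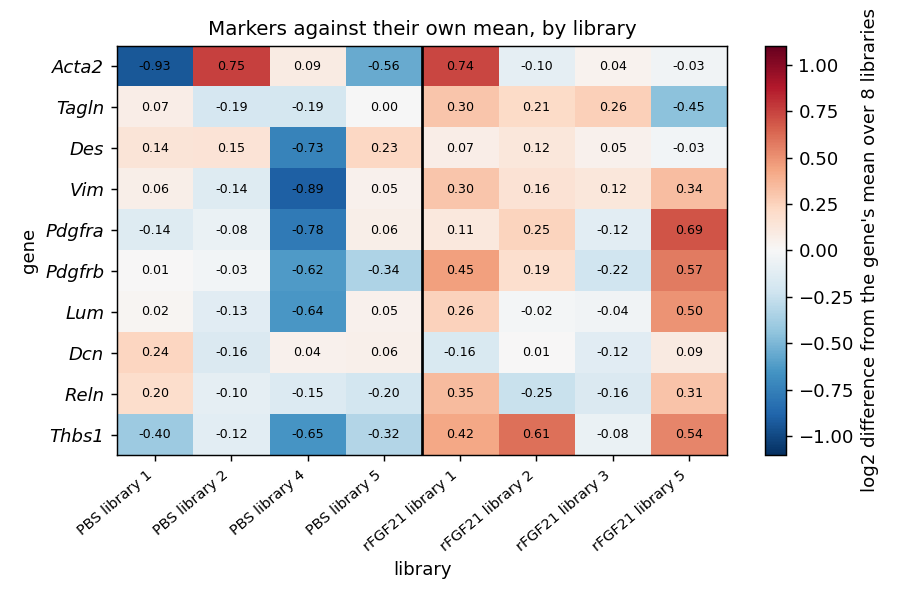
Each cell gives the log2 difference of a gene (rows) in a library (columns) from that gene's mean log2 level over the 8 libraries. PBS library 4 is between 0.62 and 0.89 below the mean for Des, Vim, Pdgfra, Pdgfrb, Lum and Thbs1, while Dcn there is 0.04 above it.

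The comparison of rFGF21 with PBS asked which of these transcripts differed within hours of the hormone. Thbs1 rose, and the other 9 genes did not pass the test (edgeR's quasi-likelihood test, two-sided, Benjamini-Hochberg adjusted p under 0.05 over 18315 genes). Over all genes tested 516 passed, which is 2.82%, with 210 higher and 306 lower. The difference was positive for 9 of the 10 genes and negative for Dcn, with a median log2 fold change of 0.28, against a median of 0.00 and 50.4% positive over all genes tested. Without PBS library 4 the median of the 10 genes was 0.23 and 8 differences were positive. At an unadjusted p under 0.05 stood 4 of the 10, Thbs1, Pdgfrb, Vim and Pdgfra, where 18.8% of all genes tested did (8.92% higher and 9.86% lower). DESeq2 called 8.23% of all genes (3.76% higher and 4.48% lower) and limma-voom 2.66% (1.08% higher and 1.58% lower), and the counts by these tools given for related genes are to be read against those shares. The groups did not overlap for Thbs1 and Vim, both higher after rFGF21. Over all genes tested 5.9% were separated in that direction and 6.38% in the opposite one, where none of the 10 genes fell.

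**Figure D2:**
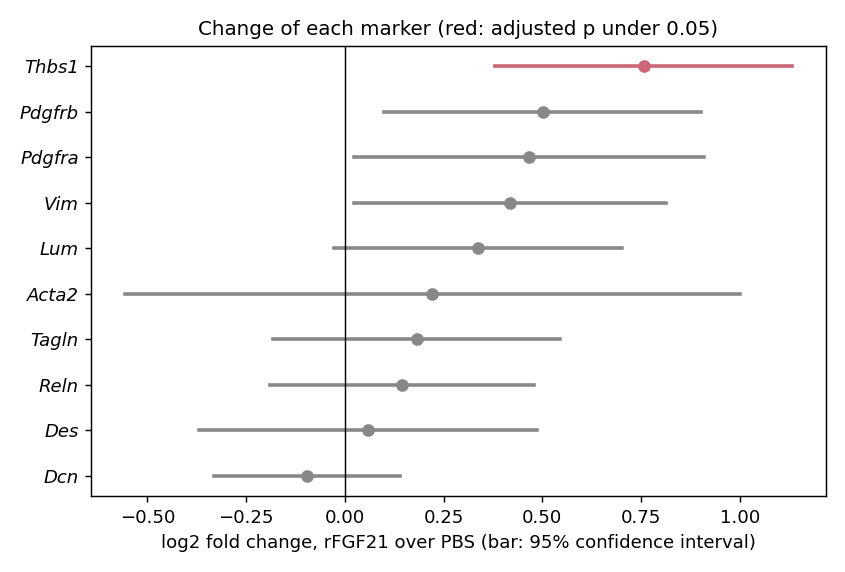
Points are log2 fold changes of rFGF21 over PBS for each gene and bars are 95% confidence intervals for that gene alone, not widened for the number of genes tested. The interval of Thbs1 runs from 0.38 to 1.13, and that of Acta2, the widest, from -0.56 to 1.00.

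Levels of the 10 genes in PBS spanned a wide range once divided by the length of each gene's merged exons. Per kilobase, Dcn stood at 32.8 ± 3.6 CPM (SD, n = 4) and Lum at 26.1 ± 5.2. Vim followed at 13.9 ± 3.7, Pdgfrb at 8.21 ± 1.60, Tagln at 5.58 ± 0.52 and Reln at 3.89 ± 0.50 CPM per kilobase. Pdgfra (2.15 ± 0.49) and Des (2.11 ± 0.56) were lower, and Acta2 (1.24 ± 0.65) and Thbs1 (1.24 ± 0.19) were the lowest. Ranges of mean ± SD overlapped between the neighbours Dcn and Lum, Pdgfra and Des, Des and Acta2, and Acta2 and Thbs1, and were apart between the other neighbours in this order. Acta2, the usual stain for myofibroblasts, was thus read at a level per kilobase close to that of Thbs1, with 102 to 346 reads per library. After rFGF21 the order began with Lum (32.9 ± 6.0 CPM per kilobase) and Dcn (30.7 ± 2.5), and Thbs1 (2.09 ± 0.41) stood above Acta2 (1.45 ± 0.44).

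**Figure D3:**
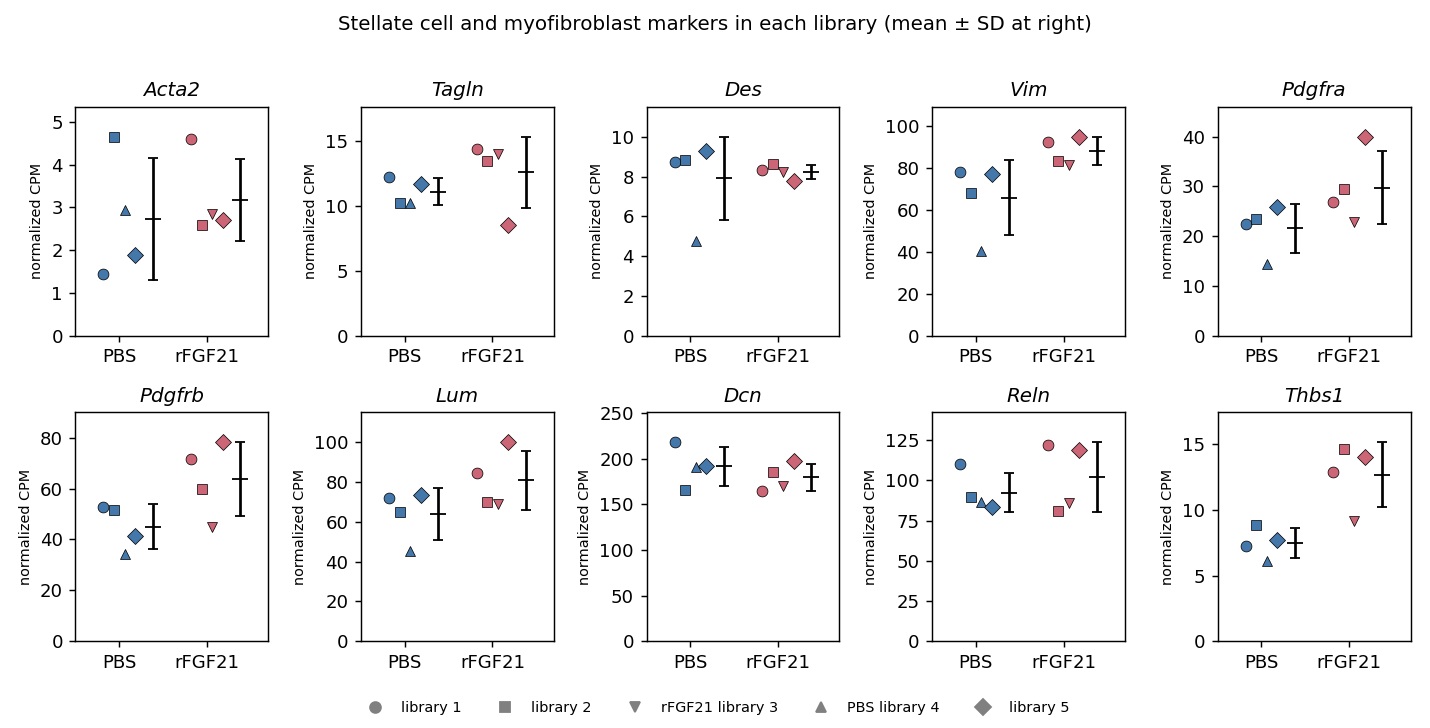
Each panel gives the normalized CPM of a gene (vertical axis, from 0) in the 4 PBS and the 4 rFGF21 libraries, with the symbol marking the library and the bar giving mean ± SD. All 4 rFGF21 libraries lie above all 4 PBS libraries for Thbs1 and for Vim.

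Thbs1 encodes thrombospondin-1, a secreted glycoprotein of platelets, endothelium and mesenchymal cells that can release TGF-beta from its latent complex (ENSMUSG00000040152, GRCm38 chromosome 2, 118111876 to 118127133, plus strand). It was read at 7.29, 8.88, 6.14 and 7.72 CPM in PBS libraries 1, 2, 4 and 5. In rFGF21 libraries 1, 2, 3 and 5 it was read at 12.9, 14.7, 9.14 and 14.02 CPM. The lowest rFGF21 library, library 3, lay just above the highest PBS library, library 2, so the groups did not overlap by a narrow margin. The log2 fold change was 0.76 ± 0.17 (SE, n = 4 each), a 1.69-fold rise (edgeR adjusted p = 0.0442). The call was close to the threshold. It was kept without rFGF21 library 3 (edgeR adjusted p = 0.0288) and lost without any other single library (0.0538 to 0.1215), at log2 fold changes between 0.67 and 0.85. DESeq2 called Thbs1 (adjusted p = 0.00141) and limma-voom did not (adjusted p = 0.0569).

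Relatives and receptors of thrombospondin-1 were less separated. None of 6 tested genes passed (edgeR; 0 at an unadjusted p under 0.05, and 0 with DESeq2 or limma-voom), though all 6 differences were positive, with a median of 0.30. The median was 0.16 without rFGF21 library 5 and 0.18 without PBS library 1, with 5 of 6 positive in each case. Thbs2, the second thrombospondin, stood at 10.3 ± 2.7 CPM in PBS and 13.8 ± 4.5 CPM after rFGF21 (edgeR adjusted p = 0.381). Cd47, the receptor known for its signal against phagocytosis, stood at 127 ± 7.4 and 141 ± 9.4 CPM (0.384). Platelets carry thrombospondin-1 protein, and 5 platelet markers summed to 4.35 to 7.27 CPM in PBS and 4.90 to 5.89 CPM in rFGF21 libraries, an overlapping range. Of those 5, 3 were tested and none passed (edgeR; 0 at an unadjusted p under 0.05, and 0 with DESeq2 or limma-voom). Ppbp stood at 0.45 ± 0.22 and 0.67 ± 0.29 CPM, and Itga2b at 3.81 ± 1.16 and 3.12 ± 0.58 CPM.

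The PDGF receptors mark mesenchymal cells of the liver, Pdgfrb chiefly stellate cells and pericytes, and Pdgfra stellate cells and portal fibroblasts. Pdgfrb (ENSMUSG00000024620, chromosome 18, 61045150 to 61085061) was read at 52.7, 51.4, 34.1 and 41.5 CPM in PBS and at 71.6, 59.7, 45.0 and 78.1 CPM in rFGF21 libraries. Of the rFGF21 libraries 3 lay above every PBS library, and library 3 lay among them. The log2 fold change of 0.50 ± 0.18 (SE) did not pass (edgeR adjusted p = 0.169, 95% interval 0.10 to 0.90).

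Pdgfra (ENSMUSG00000029231, chromosome 5, 75152292 to 75198215) was read at 22.4, 23.5, 14.4 and 25.8 CPM in PBS and at 26.8, 29.4, 22.9 and 40 CPM in rFGF21 libraries. As with Pdgfrb, rFGF21 library 3 alone fell within the PBS range. The difference of 0.47 ± 0.20 did not pass (edgeR adjusted p = 0.241), and it was 0.29 without rFGF21 library 5. Among 4 PDGF ligand genes none passed by edgeR or limma-voom, 2 stood at an unadjusted p under 0.05, and DESeq2 called 1 higher. Pdgfb, the chain that drives growth of stellate cells, stood at 8.24 ± 1.37 CPM in PBS and 14.5 ± 4.8 CPM after rFGF21 (edgeR adjusted p = 0.0817, adjusted p = 0.00803 with DESeq2). Its groups did not overlap. Pdgfa averaged 14.5 ± 0.9 CPM in PBS and 18.1 ± 2.4 CPM with rFGF21 (edgeR adjusted p = 0.154).

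Acta2 encodes smooth muscle alpha-actin, the filament that lets myofibroblasts contract (ENSMUSG00000035783, chromosome 19, 34241090 to 34255590). It was read at 1.45, 4.65, 2.94 and 1.88 CPM in PBS and at 4.61, 2.58, 2.83 and 2.69 CPM in rFGF21 libraries. Within PBS the highest library was over 3-fold above the lowest, and the rFGF21 libraries lay inside that range. The difference of 0.22 ± 0.35 did not pass (edgeR adjusted p = 0.791), with a 95% interval from -0.56 to 1.00. Without rFGF21 library 1 it was -0.01.

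Tagln encodes transgelin, an actin-binding protein of smooth muscle and myofibroblasts (ENSMUSG00000032085, chromosome 9, 45929619 to 45936058). It was read at 12.2, 10.2, 10.2 and 11.7 CPM in PBS and at 14.4, 13.5, 13.96 and 8.52 CPM in rFGF21 libraries. Here 3 rFGF21 libraries lay above all PBS libraries and library 5 below all of them, the library that was highest in Vim, Lum and both PDGF receptors. The difference was 0.18 ± 0.16 (edgeR adjusted p = 0.605). Tagln overlaps Gm48529 and the end of Pcsk7 on the opposite strand, with up to 409 and 2447 reads, and how the counting treated strand is not known from the labels or the table.

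Des encodes desmin, the intermediate filament by which rodent stellate cells are usually recognised (ENSMUSG00000026208, chromosome 1, 75360329 to 75368579). It was read at 8.74, 8.83, 4.77 and 9.29 CPM in PBS and at 8.33, 8.65, 8.21 and 7.79 CPM in rFGF21 libraries. The rFGF21 libraries were close together, with a coefficient of variation of 4.28%, and PBS library 4 set the spread of its group, at 26.6%. The difference was 0.06 ± 0.19 (edgeR adjusted p = 0.906) with all libraries and -0.12 without PBS library 4 (0.624).

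Vim encodes vimentin, the intermediate filament of mesenchymal cells, leukocytes and endothelium (ENSMUSG00000026728, chromosome 2, 13573927 to 13582826). It was read at 78.1, 67.9, 40.3 and 77.4 CPM in PBS and at 92.4, 83.6, 81.4 and 94.99 CPM in rFGF21 libraries. The groups did not overlap, with 78.1 CPM as the highest PBS value and 81.4 CPM as the lowest rFGF21 value. The log2 fold change of 0.42 ± 0.18 did not pass (edgeR adjusted p = 0.238), and without PBS library 4 it was 0.25. Of 9 other intermediate filament genes none passed (edgeR; 5 at an unadjusted p under 0.05, all higher; DESeq2 called 3 higher and limma-voom none). Krt23, a keratin of bile duct cells, averaged 36.6 ± 12.3 CPM in PBS and 59.1 ± 6.3 CPM with rFGF21 (edgeR adjusted p = 0.118). Krt19, another duct keratin, averaged 7.10 ± 1.39 and 11.2 ± 2.8 CPM (edgeR adjusted p = 0.1198).

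Other genes of contraction and of the serum response factor (SRF) programme, which controls actin genes, were read beside Acta2 and Tagln. Of 14 tested, 3 rose and none fell by edgeR, 10 differences were positive and the median was 0.21. DESeq2 called 4 higher and 1 lower, and limma-voom 3 higher. Groups did not overlap for 4 higher genes and 1 lower one, where 5.9% and 6.38% of all genes tested were so separated. The lower one was Mylk, the myosin light chain kinase, named here after its values were seen. Mylk averaged 111 ± 13.3 CPM in PBS and 84.3 ± 6.8 CPM with rFGF21 (edgeR adjusted p = 0.0693). Leaving out a library gave 1 to 4 higher calls, and without PBS library 4 the median was 0.32. Ankrd1, a muscle repeat protein and a target of YAP, rose by 1.23 ± 0.18 on the log2 scale (edgeR adjusted p = 0.00898), with means of 6.49 ± 1.37 CPM in PBS and 15.3 ± 2.8 CPM with rFGF21. Flna, filamin A, which crosslinks actin, rose by 0.66 ± 0.13 (edgeR adjusted p = 0.0276), with means of 96.3 ± 13.7 and 153 ± 20.4 CPM. Actg1, a cytoplasmic actin made in all cells, rose by 0.47 ± 0.09 (edgeR adjusted p = 0.0299), with means of 221 ± 15.4 and 306 ± 21.1 CPM. Each of these 3 is also made in cells other than stellate cells. Ankrd1 kept its call whichever library was left out. Flna kept it when PBS library 2 or 4 or rFGF21 library 3 was dropped and lost it when one of the others was (edgeR adjusted p from 0.0512 to 0.0932). Actg1 kept it when PBS library 4 or 5 was dropped and lost it otherwise (edgeR adjusted p from 0.0562 to 0.0989).

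Smooth muscle cells and pericytes of vessels also make Acta2, Tagln and Des. Of 8 tested markers of these cells none passed (edgeR and limma-voom; 1 at an unadjusted p under 0.05, and 1 called higher by DESeq2). Their summed level was 81.2 to 104 CPM in PBS and 83.2 to 105 CPM after rFGF21. Of these 8 differences 4 were positive, with a median of 0.07 that was -0.08 without rFGF21 library 5 and -0.06 without PBS library 5. The pair with the smallest p both had positive differences. Mcam, a vascular adhesion molecule, averaged 6.86 ± 1.79 CPM in PBS and 14.3 ± 7.0 CPM with rFGF21 (edgeR adjusted p = 0.116), and Lmod1, an actin nucleator of smooth muscle, at 0.47 ± 0.08 and 0.76 ± 0.21 CPM (0.311).

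Decorin and lumican are small leucine-rich proteoglycans that bind collagen fibrils. Their genes are neighbours on chromosome 10, Dcn at 97479609 to 97518143 (ENSMUSG00000019929) and Lum at 97565128 to 97572703 (ENSMUSG00000036446), both on the plus strand with 46984 bases between them. Dcn was read at 218, 166, 191 and 192 CPM in PBS and at 165, 185, 170 and 197 CPM in rFGF21 libraries. The groups overlapped and the difference was -0.10 ± 0.11 (edgeR adjusted p = 0.687, 95% interval -0.33 to 0.14), the narrowest interval of the 10 genes.

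Lum was read at 71.9, 64.7, 45.4 and 73.3 CPM in PBS and at 84.5, 69.7, 68.6 and 99.8 CPM in rFGF21 libraries. Libraries 1 and 5 of the rFGF21 group were above all PBS libraries and the other two were not. The difference of 0.34 ± 0.17 did not pass (edgeR adjusted p = 0.305). PBS library 4, lowest in Lum, was not low in Dcn. Of 7 other proteoglycans of this family that were tested, 2 differences were positive and the median was -0.27, with none passing (edgeR; 1 lower at an unadjusted p under 0.05, 0 with DESeq2 or limma-voom). That median was -0.12 without rFGF21 library 5, the setting that moved it most. Chad, chondroadherin, stood at 3.06 ± 0.88 CPM in PBS and 1.80 ± 0.47 CPM after rFGF21 (edgeR adjusted p = 0.159), and Podn, podocan, at 6.85 ± 0.79 and 5.70 ± 0.95 CPM (0.403).

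Reln encodes reelin, a large secreted glycoprotein known from brain development that in the liver is made by stellate cells, at rest and after activation (ENSMUSG00000042453, chromosome 5, 21884454 to 22344702, minus strand). It was read at 110, 89.4, 86.3 and 83.4 CPM in PBS and at 122, 80.9, 86.0 and 119 CPM in rFGF21 libraries. The rFGF21 group split into a high pair, libraries 1 and 5, and a low pair within or below the PBS range. The difference was 0.15 ± 0.15 (edgeR adjusted p = 0.662). Of 3 genes of the reelin receptors and their adaptor none passed (edgeR; 0 at an unadjusted p under 0.05, and 0 with DESeq2 or limma-voom). Vldlr stood at 18.3 ± 4.2 and 23.5 ± 4.0 CPM, and Lrp8 at 0.39 ± 0.15 and 0.48 ± 0.19 CPM.

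The stretches before the gene starts differ between these markers, and 3 of them are shown. Reln was taken because its levels serve below as the reference within each library. Des and Pdgfra were taken from the genes lowest in PBS library 4. Vim, also lowest there, had a stretch as well, which is not shown. RefSeq's promoter table (GRCm38.p6) held 5 of the 10 genes. Each run is the 250 bases before the RefSeq start, 5′ to 3′ on the gene's strand, with matches to GGGCGG on either strand in capitals. They lie at chr5:22344706-22344955 (minus strand), chr1:75360042-75360291 (plus) and chr5:75152001-75152250 (plus).
Reln: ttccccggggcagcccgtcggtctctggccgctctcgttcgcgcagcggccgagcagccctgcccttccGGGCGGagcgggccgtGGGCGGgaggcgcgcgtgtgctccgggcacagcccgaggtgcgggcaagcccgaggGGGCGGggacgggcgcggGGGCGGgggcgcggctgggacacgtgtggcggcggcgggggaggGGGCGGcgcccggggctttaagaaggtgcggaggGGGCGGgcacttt
Des: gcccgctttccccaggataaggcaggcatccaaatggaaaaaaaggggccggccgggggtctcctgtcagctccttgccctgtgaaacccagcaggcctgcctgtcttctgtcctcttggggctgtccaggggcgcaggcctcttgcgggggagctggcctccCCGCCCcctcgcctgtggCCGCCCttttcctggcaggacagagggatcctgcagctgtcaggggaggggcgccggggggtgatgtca
Pdgfra: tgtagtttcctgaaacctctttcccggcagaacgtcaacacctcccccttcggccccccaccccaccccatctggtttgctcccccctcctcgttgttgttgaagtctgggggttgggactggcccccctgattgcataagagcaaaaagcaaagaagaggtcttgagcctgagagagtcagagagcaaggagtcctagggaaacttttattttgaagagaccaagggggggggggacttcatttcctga
The Reln stretch is 80.0% G or C with 6 such matches, the Des stretch 67.2% with 2, and the Pdgfra stretch 54.4% with none. Among 32851 windows of the same length in the table the median is 52.4%, and 32.7% hold at least 1 such match. The letters TATAA, on either strand, are in 22.8% of all windows and the CArG box, the letters bound by SRF, in 1.47%. Neither is in these 3 stretches, which says only that the letters are not in this window. The stretch of Vim, not shown, held 2 matches to TATAA and 0 to the CArG box. It lies at chr2:13574061-13574310 (plus), inside the gene as printed above, which starts at 13573927.

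Markers listed as activated were then set against Reln within each library, where sequencing depth and scaling cancel. Stellate cells make Reln at rest and after activation, so the ratio is not one of activated to resting cells. As a description, the mean log2 ratio of Acta2, Tagln, Vim, Lum and Thbs1 to Reln, from CPM not divided by length, was -2.89, -2.32, -2.76 and -2.41 in PBS libraries 1, 2, 4 and 5. In rFGF21 libraries 1, 2, 3 and 5 it was -2.40, -2.04, -2.24 and -2.59. The ranges overlapped, and rFGF21 library 2 was the highest while PBS library 1 was the lowest. The group means were -2.59 ± 0.27 and -2.31 ± 0.23 (SD), a difference of 0.28, about the size of the spread within a group. The genes behind it differed by 0.19 (Acta2), 0.03 (Tagln), 0.33 (Vim), 0.22 (Lum) and 0.62 (Thbs1), so the mean rests most on Thbs1. For Des, Pdgfra, Pdgfrb and Dcn, markers of stellate cells and fibroblasts in any state, the same mean was -1.43 ± 0.25 in PBS and -1.31 ± 0.25 after rFGF21. Gene by gene, Thbs1 relative to Reln was the 1 ratio of 9 whose groups did not overlap, with a difference of 0.62 on the log2 scale. The margin was narrow, from -1.365 in PBS library 2 to -1.274 in rFGF21 library 1, per kilobase of exon. The ratio uses the Thbs1 reads already tested above, so it is no separate result. The share of all genes separated in their ratio to Reln was not computed. Dcn (-0.22) and Des (-0.02) relative to Reln went the other way. Pdgfra (0.34) and Pdgfrb (0.36) had positive differences, so the mean of the markers of any state combines both signs.

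**Figure D4:**
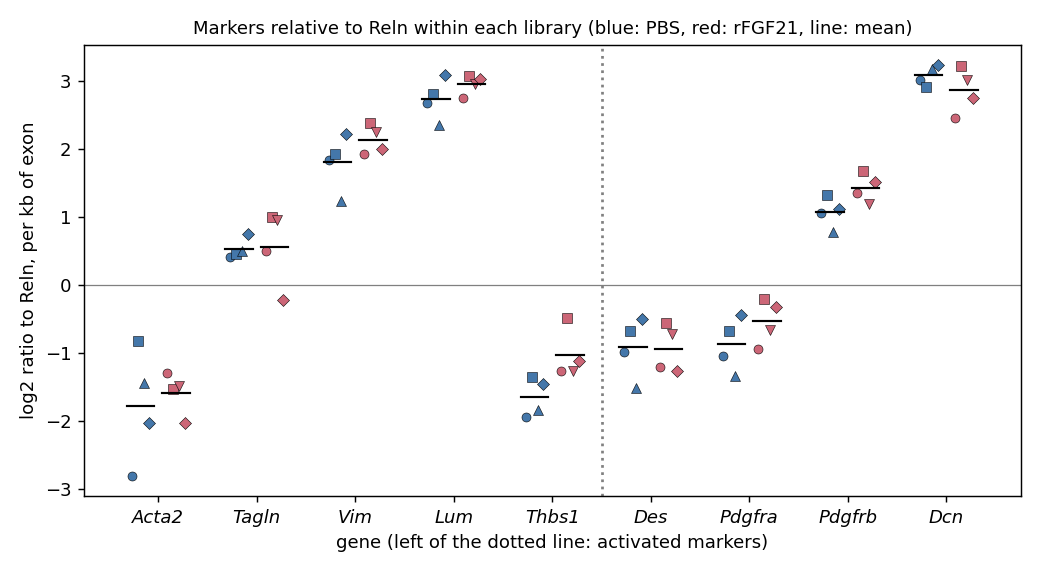
The vertical axis is the log2 ratio of each gene to Reln in the same library, each divided by its exon length, and symbols mark the library as in the plot of levels. The PBS and rFGF21 libraries overlap for every gene but Thbs1, whose PBS mean is -1.66 and rFGF21 mean -1.04.

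Markers of the resting stellate cell, a list without Reln, spread to both sides of 0. Of 18 tested, 9 differences were positive, the median was 0.00, and 1 gene fell, Vipr1, a receptor for vasoactive intestinal peptide (edgeR adjusted p = 0.0405, log2 fold change -0.63 ± 0.14), with means of 24.5 ± 4.3 CPM in PBS and 15.9 ± 1.8 CPM with rFGF21. At an unadjusted p under 0.05 stood 3 lower and 1 higher, and DESeq2 called 2 lower and none higher. Angptl6, an angiopoietin-like secreted protein named here after its values were seen, averaged 3.17 ± 0.79 CPM in PBS and 1.61 ± 0.27 CPM with rFGF21, without overlap (log2 difference -0.98, edgeR adjusted p = 0.0557). In the other direction Hgf, likewise named after its values were seen, averaged 11.2 ± 0.6 CPM in PBS and 13.0 ± 0.7 CPM with rFGF21. Its groups did not overlap either (log2 difference 0.22, edgeR adjusted p = 0.258). Vipr1 kept its call without PBS library 2 (0.0272) and lost it without any other single library (0.0679 to 0.1204). Without PBS library 2, 3 genes of the list were called lower.

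Genes of fibrogenic activation all had positive differences, and none passed the test. Of 19 tested, all 19 differences were positive with a median of 0.50, and none passed (edgeR and limma-voom; 10 at an unadjusted p under 0.05, all higher, and DESeq2 called 6 higher). Over all genes tested, 8.92% were higher at that p and 3.76% were called higher by DESeq2. Groups did not overlap for 8 of the 19, all higher after rFGF21, where 5.9% of all genes tested were separated in that direction. The list was chosen with earlier results of these data known. Col5a2, a fibril collagen chain, stood at 25.0 ± 3.7 CPM in PBS and 38.6 ± 7.2 CPM after rFGF21 (edgeR adjusted p = 0.0523), and Timp1, an inhibitor of matrix proteases, at 5.90 ± 0.53 and 8.64 ± 1.55 CPM (0.0915). PBS library 4 was the lowest of the 8 libraries in 15 of the 19 genes and rFGF21 library 5 the highest in 12. Without PBS library 4 the median was 0.34, and without rFGF21 library 5 it was 0.35 with 18 of 19 positive.

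**Figure D5:**
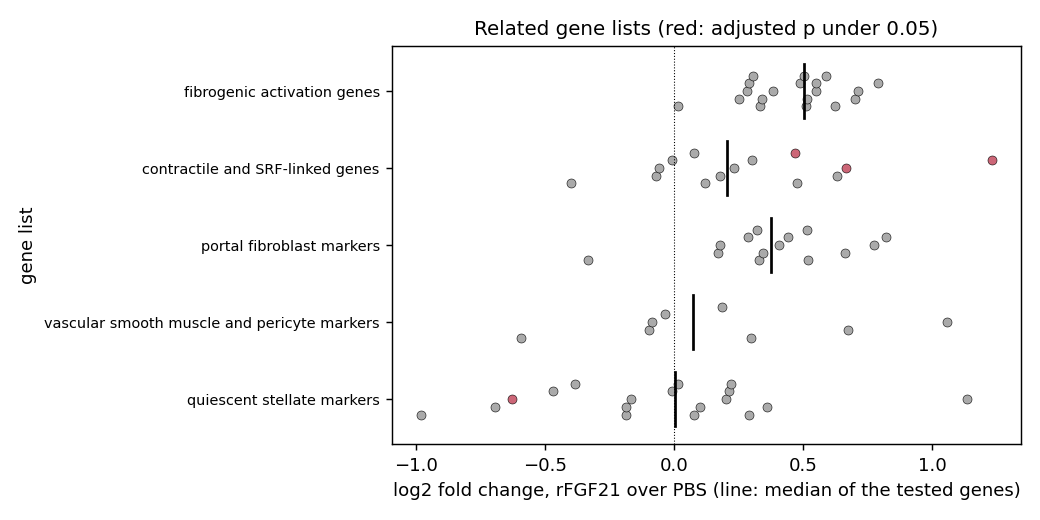
Each point is the log2 fold change of a tested gene (horizontal axis) in a list of related genes (rows), and the line is the median of the list. The fibrogenic genes all lie above 0 around a median of 0.50, and the resting stellate markers spread on both sides of a median of 0.00.

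Portal fibroblast markers, cells that also make Dcn, Lum and Pdgfra, had 13 of 14 positive differences and a median of 0.38, with none passing (edgeR; 3 higher at an unadjusted p under 0.05, and 0 with DESeq2 or limma-voom). Col15a1, a basement membrane collagen, averaged 16.9 ± 2.7 CPM in PBS and 24.2 ± 5.7 CPM with rFGF21 (edgeR adjusted p = 0.144), and Cd34 at 11.7 ± 3.5 and 18.5 ± 5.3 CPM (0.173). PBS library 4 was the lowest in 12 of these 14 genes. Mesothelial markers, of cells of the liver surface, summed to 8.38 to 17.2 CPM in PBS, lowest in library 4, and 9.28 to 24.5 CPM after rFGF21. None of the 6 passed (edgeR; 1 higher at an unadjusted p under 0.05, and 0 with DESeq2 or limma-voom). Wt1 stood at 1.11 ± 0.77 and 2.31 ± 0.59 CPM, and Msln at 3.13 ± 1.41 and 5.603 ± 2.64 CPM.

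The summed bile duct markers shared their lowest and highest library with the summed fibrogenic genes and the summed portal fibroblast markers. The sums of contractile genes and of vascular smooth muscle markers were instead lowest in PBS library 5. The 7 cholangiocyte markers summed to 276, 256, 174 and 247 CPM in PBS libraries 1, 2, 4 and 5 and to 340, 244, 274 and 385 CPM in rFGF21 libraries 1, 2, 3 and 5, again lowest in PBS library 4 and highest in rFGF21 library 5. All 7 differences were positive with a median of 0.62, and none passed (edgeR and limma-voom; 6 higher at an unadjusted p under 0.05, and DESeq2 called 3 higher, against 8.92% and 3.76% of all genes tested). Krt19 was given above, and Sox9 stood at 7.60 ± 0.31 and 11.7 ± 3.4 CPM (edgeR adjusted p = 0.130). The part of duct, portal or other cells in the stromal differences was not tested.

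Endothelial cells and macrophages also make Vim and Thbs1. Of 10 endothelial markers PBS library 1 was the highest in 9, while PBS library 4 was the lowest in 3 and rFGF21 library 5 in 2. Of 9 macrophage markers rFGF21 library 5 was the lowest in 5 and PBS library 4 in 3. Endothelial markers summed to 188 to 331 CPM in PBS and 179 to 276 CPM after rFGF21, and macrophage markers to 824 to 1327 and 782 to 1077 CPM. None of 10 endothelial and 9 macrophage markers passed (edgeR; 0 and 1 at an unadjusted p under 0.05, and 0 with DESeq2 or limma-voom). Differences of endothelial markers were positive for 4 of 10 with a median of -0.12, which was 0.16 without PBS library 1. The pair with the smallest p both had positive differences. Lyve1 stood at 2.74 ± 0.36 and 3.29 ± 1.00 CPM and Tie1 at 9.35 ± 2.67 and 10.8 ± 0.8 CPM. Differences of macrophage markers were positive for 3 of 9 with a median of -0.49, which was -0.22 without rFGF21 library 5 and -0.80 without rFGF21 library 3. Timd4 and Vsig4, of resident macrophages, had the smallest p. The positive log2 differences were those of Csf1r (0.16), Lyz2 (0.24) and Adgre1 (0.04), named here after their values were seen. Cd68, like these a general marker, had a negative one (-0.24). Timd4 averaged 14.1 ± 5.0 CPM in PBS and 7.80 ± 3.34 CPM with rFGF21 (edgeR adjusted p = 0.186) and Vsig4 averaged 52.1 ± 8.5 and 34.1 ± 15.6 CPM (0.285).

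Neutrophil markers summed to 10.8 to 18.3 and 13.0 to 26.2 CPM, and lymphocyte markers to 8.63 to 9.79 and 8.999 to 10.2 CPM, in PBS and rFGF21 libraries. All 5 tested neutrophil differences were positive, with a median of 0.89 that was 0.68 without rFGF21 library 5. Of 8 lymphocyte differences 5 were positive, with a median of 0.08. PBS library 4 was the lowest in 3 of 5 neutrophil and 3 of 8 lymphocyte markers, and rFGF21 library 5 the highest in 3 of the 5 and 1 of the 8. None of the 5 and 8 tested passed by edgeR or limma-voom (1 each at an unadjusted p under 0.05; DESeq2 called 1 lymphocyte marker higher). S100a9 stood at 3.09 ± 1.22 and 5.71 ± 2.02 CPM, Mmp8 at 0.18 ± 0.13 and 0.60 ± 0.50 CPM, Cd8a at 1.55 ± 0.17 and 2.60 ± 0.48 CPM, and Cd4 at 3.07 ± 0.17 and 2.54 ± 0.51 CPM. Of hepatocyte markers, PBS library 4 was the highest in 3 of 7 and rFGF21 library 5 the lowest in 1. Of those 7 none passed by edgeR or limma-voom (2 at an unadjusted p under 0.05, 1 in each direction; DESeq2 called 1 lower). Cyp2e1 stood at 2171 ± 540 and 1354 ± 267 CPM, and Ahsg at 11993 ± 1384 and 14800 ± 1630 CPM.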

How the data were processed

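RNA of 8 liver samples was sequenced and read counts per gene were deposited by the authors in 1 table of 30266 genes. The submitters' processing notes name Bowtie 0.12.2 and build mm8, as used by the authors; the coordinates printed here are those of the table, which are GRCm38 positions (the member genes were matched to GENCODE M21 by identifier). The notes and labels name no counting tool and no strand setting. The 8 count columns that also have FPKM values were used, and 10 other columns of values per library (8 FPKM and 2 count columns) were not used here. Columns were assigned to groups, not to single samples.

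Tests on these counts used edgeR 4.0.16 in R 4.3.3 (filterByExpr, TMM, glmQLFit and glmQLFTest), without covariates, over 18315 genes with Benjamini-Hochberg adjustment. Standard errors follow from the F statistic, and intervals use the fit's degrees of freedom. Levels per kilobase use merged exons of GENCODE M21. Alternatives were DESeq2 1.42.0, limma-voom (limma 3.58.1), other scalings and filters, and leaving out each library. The edgeR step was tested on simulated data. The 10 genes and the 19 lists of related genes were chosen with earlier results of these data known. Named from each list were the genes that passed, up to 4, or otherwise the 2 with the smallest p.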

Additional observations from a re-analysis of the deposited data

Results flagged for a closer look

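Within a group of 4 libraries, a value was looked at again when its gap to the nearest other value took more of the group's range than Dixon's 95% critical value for 4 samples. Of 20 groups (10 genes in PBS and rFGF21), 3 held such a value, where chance gives about 1 in 20. Des was low in PBS library 4, at 4.77 CPM against 8.74 to 9.29 CPM in the other PBS libraries. Acta2 was high in rFGF21 library 1, at 4.61 CPM against 2.58 to 2.83 CPM. Tagln was low in rFGF21 library 5, at 8.52 CPM against 13.5 to 14.4 CPM. The cause was not tested.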

How the results depend on the processing

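Of the 140 fits of single members under the alternatives, 138 kept the direction given above. Both reversals came from leaving out a library: Acta2 ranged from -0.0121 (without rFGF21 library 1) to 0.61, and Des from -0.12 (without PBS library 4) to 0.16. Among related genes, Lrp8 ranged from -0.0349 (without rFGF21 library 5) to 0.50. The number of members called was 1 with DESeq2, RLE or upper-quartile scaling or a minimum of 1 CPM in 4 libraries, and 0 with limma-voom or no filter (4 members at an unadjusted p under 0.05 in each). Leaving out a library gave 0 to 1, with 2 to 5 members at an unadjusted p under 0.05. The number of genes changed was 1508 with DESeq2 (688 higher, 820 lower), 198 without the filter (85 and 113), and 131 to 486 with a library left out (51 to 198 and 80 to 288). The difference in the mean log2 ratio of activated markers to Reln ranged from 0.18 to 0.37 with a library left out. No paired analysis was possible because the numbers of the count columns are not the replicate numbers of the labels. List values with a library left out were added after seeing the data. With 4 libraries per group, differences as small as those of most members were not resolved.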
